A study of Mus musculus with 2 samples.

Results

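Cluster C1 of the young mouse liver is a group of dividing blood cells that the authors of the study set apart in their single-cell annotation. Its members were the cells carrying the name C1 in that annotation, matched by barcode to the 2 deposited tables of counts. There were 909 of them among 15835 annotated cells, 272 of 7669 in the control library and 637 of 8166 in the c-Maf KO library. Both libraries were made from livers of mice at postnatal day 15 by sorting endothelial and hematopoietic cells and capturing them in droplets. The control group was 1 library from control endothelial cell mice, and the other group was 1 library from mice whose endothelial cells lack c-Maf, a transcription factor encoded by Maf. Each library pooled 1 male and 1 female mouse. The sources used here do not name the driver of the deletion, the genotype of the controls or the sorting gate. The deletion is labelled as one of endothelial cells, and whether it also reached blood cells was not tested. Maf UMIs in C1 cells are given below.

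Cells that divide copy their DNA in S phase, with the help of the Mcm helicase, Pcna and the enzymes of nucleotide synthesis, and then pass through G2 into mitosis, when Top2a untangles the chromosomes and Ube2c helps to destroy cyclins. The liver is the main blood-forming organ before birth, and B cell precursors and granulocyte precursors divide there. A B cell precursor that has joined a heavy chain gene shows it at its surface with a surrogate light chain built from Vpreb1 or Vpreb2 and Igll1, divides in a burst, then stops and joins a light chain gene with the Rag1 and Rag2 recombinase. Granulocyte precursors fill their first granules with the proteases Elane, Prtn3 and Ctsg and the peroxidase Mpo while they still divide, and make the proteins of later granules, such as Ltf, Camp and Ngp, afterwards.

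Promoters are shown for Ube2c, Top2a and Prtn3, markers of the cluster, and for Elane, a marker of its granulocyte precursors. They belong to 2 programs described below, division and granule formation, and the second concerns only a small part of the cluster. Capitals in the first pair, of the mitotic genes Ube2c and Top2a, mark CCAAT and the letters TTTGAA or TTCGAA, read on both strands. These are the letters of the CCAAT box and of the cell cycle homology region known from genes of G2 and mitosis. The Ube2c stretch held matches to CCAAT only. Sequences are from RefSeq, build GRCm38.p6, upstream of the start and without exon bases, at chr2:164769779-164769897 on the plus strand for Ube2c and chr11:99024190-99024339 on the minus strand for Top2a.
Ube2c: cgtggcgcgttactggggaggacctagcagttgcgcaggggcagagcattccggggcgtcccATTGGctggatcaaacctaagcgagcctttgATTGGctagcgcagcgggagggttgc
Top2a: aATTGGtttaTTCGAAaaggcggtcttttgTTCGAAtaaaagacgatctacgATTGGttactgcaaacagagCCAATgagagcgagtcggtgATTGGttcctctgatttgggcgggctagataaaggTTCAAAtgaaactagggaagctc
Capitals in the second pair, of the granule genes Elane and Prtn3, mark GAGGAA, letters read by the ETS factor PU.1, the product of Spi1, on both strands. They lie at chr10:79886162-79886246 and chr10:79879517-79879613, both on the plus strand. The Prtn3 window lies before a RefSeq start that is inside the longer GENCODE gene.
Elane: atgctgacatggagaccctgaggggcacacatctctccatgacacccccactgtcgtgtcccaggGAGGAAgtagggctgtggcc
Prtn3: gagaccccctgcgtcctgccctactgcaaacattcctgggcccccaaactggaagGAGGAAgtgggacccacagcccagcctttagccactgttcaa
Over the 250 bases before the start, CCAAT was found in 33.8% of 32851 promoters and in 38 of 51 promoters (74.5%) of 46 matched genes of a list of 52 G2M phase genes. TTTGAA or TTCGAA was found in 17.1% of all promoters and 45.1% of those of the G2M phase list. An S phase list of 42 genes, of which 30 were matched with 33 promoters, had CCAAT in 66.7% and TTTGAA or TTCGAA in 18.2%. GAGGAA was found in 23.3% of all promoters and in 6 of 13 (46.2%) of those of 12 matched genes among 16 primary granule genes. A match of letters is a description and not a binding site, and no factor's binding was measured.

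C1 cells held more UMIs, the molecule counts of the method, than their neighbours. The median was 9100.5 UMIs per C1 cell in the control library and 7714 in the c-Maf KO library, against 4669 and 3772 over all 4599 and 5085 hematopoietic cells. Their summed depth was 3100007 and 6281186 UMIs. No C1 barcode was shared by the libraries, and 21 barcodes were shared among all annotated cells. The doublet caller Scrublet marked 127 and 173 annotated cells, with 4 and 11 of them in C1, and these were kept. With 1 library a group there is no replicate check and no test, and 95% intervals given in brackets cover counting error only. Levels are summed UMIs per 1000000 UMIs of the same cells (CPM).

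Division genes were found in most C1 cells. C1 was clustered on such genes and Top2a is among its markers, so the shares below describe the cluster and do not test its name. Mki67, a protein of dividing nuclei, or Top2a had a UMI in 220 of 242 control C1 cells (90.9%, 86.6 to 94.2) and 519 of 576 c-Maf KO C1 cells (90.1%, 87.4 to 92.4) after each cell was thinned to 3275 UMIs, which left out 30 and 61 shallower cells. Without thinning the shares were 90.4% and 91.7%. Mature B cells of cluster B3, taken as the background, had 5.05% and 7.90% at the same depth, and the cycling endothelial cluster C-EC had 90.2% and 89.1%. The median C1 cell held 2 and 1 UMIs over 12 endothelial markers. The cluster markers Hist1h2ap (a histone gene at chr13:21833026-21833507 on the minus strand), Top2a (chr11:98992943-99024189, minus) and Ube2c (chr2:164769898-164778822, plus) are placed by the GENCODE M21 annotation of mm10, as are the other genes below.

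Most C1 cells were B cell precursors. A cell was called a B-type cell when it held at least 2 UMIs of Vpreb1, Vpreb3 and Cd79a and these made up at least 75% of its UMIs over the lineage markers. Granulocyte-type cells were called in the same way from Elane, Prtn3 and Mpo, and T or NK-type cells from Cd3e and Nkg7. In the control library 235 of 272 C1 cells were B-type (86.4%, 81.7 to 90.2), and in the c-Maf KO library 584 of 637 (91.7%, 89.3 to 93.7). Granulocyte-type cells numbered 9 (3.31%, 1.52 to 6.19) and 19 (2.98%, 1.81 to 4.62). The intervals of the 2 libraries overlapped for both types. T or NK-type cells numbered 2 and 3, mixed cells 1 and 3, and 25 and 28 cells held too few marker UMIs to be assigned, of which 20 and 19 had under 1000 UMIs in all.

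Few B-type cells held marker UMIs of another lineage, and most granulocyte-type cells held some. The median B-type cell held 41 UMIs of its 3 markers in the control library and 35 in the c-Maf KO library, and 214 of 235 and 566 of 584 B-type cells held no marker UMI of another lineage. The median granulocyte-type cell held 880 and 321 UMIs of Elane, Prtn3 and Mpo. Only 2 of 9 and 4 of 19 granulocyte-type cells held no marker UMI of another lineage, and Nkg7, 1 of the T or NK markers, had a UMI in 7 and 15 of them. Close to the cut, 2 and 12 B-type cells and 0 and 3 granulocyte-type cells held under 5 UMIs of their own markers. Since the types were cut from these UMIs, these counts are a description.

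**Figure D1:**
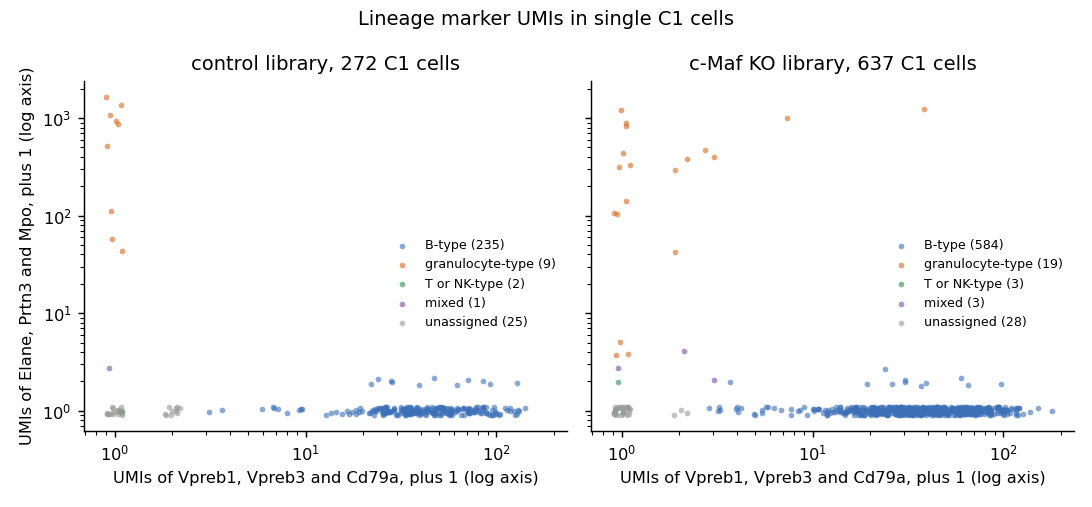
UMIs of the B markers (x axis) against UMIs of the granulocyte markers (y axis), each plus 1 on log axes with a small jitter, in 272 control and 637 c-Maf KO C1 cells, coloured by type. B-type cells lie along the bottom, and the 9 and 19 granulocyte-type cells lie near the left edge, with 1 c-Maf KO cell high on both axes.

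C1 made up more of the hematopoietic cells of the c-Maf KO library. The difference was wide among male-type cells, and among female-type cells it depended on the depth of the cells counted. C1 was 5.91% of hematopoietic cells in the control library (5.25 to 6.64) and 12.5% in the c-Maf KO library (11.6 to 13.5). Cells were told apart by sex from UMIs of Xist without Y-linked UMIs (female-type) or of Ddx3y, Eif2s3y, Kdm5d or Uty without Xist (male-type). C1 was 208 of 1691 female-type hematopoietic cells in the control library (12.3%, 10.8 to 14.0) and 314 of 2515 in the c-Maf KO library (12.5%, 11.2 to 13.8). Among male-type cells it was 22 of 1192 (1.85%, 1.16 to 2.78) and 160 of 1120 (14.3%, 12.3 to 16.5). The intervals of the female-type shares overlapped and those of the male-type shares did not. Over cells of at least 3275 UMIs, a limit that leaves out shallow cells, the female-type shares were 14.0% (12.2 to 15.9) and 17.97% (16.1 to 19.9), and the male-type shares 2.27% (1.43 to 3.41) and 19.8% (17.1 to 22.8). Above this limit neither sex had overlapping intervals. Of B lineage cells above it, C1 was 27.2% (24.0 to 30.5) and 37.7% (34.3 to 41.2) in female-type cells, against 21.96% (19.4 to 24.7) and 19.9% (17.9 to 21.9) without the limit. Each sex of a library is 1 mouse, so that a difference between sexes, between single mice and between genotypes cannot be told apart.

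The control male mouse had few B cell precursors of either kind. B-type C1 cells were 194 of 408 female-type and 22 of 51 male-type cells over B-type C1 and the resting precursors of cluster B1 (47.5%, 42.6 to 52.5, and 43.1%, 29.3 to 57.8). In the c-Maf KO library the same shares were 39.9% (36.4 to 43.6) and 32.5% (28.3 to 37.0). Over all cells the dividing share of B-type C1 and B1 cells was 44.3% in the control library (40.1 to 48.7) and 34.4% in the c-Maf KO library (32.1 to 36.7), the opposite order to the share of C1 among hematopoietic cells. C1 was 13.1% (11.7 to 14.7) and 19.2% (17.9 to 20.6) of the cells in C1 and the B lineage clusters B1, B2, B3 and CLP.

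**Figure D2:**
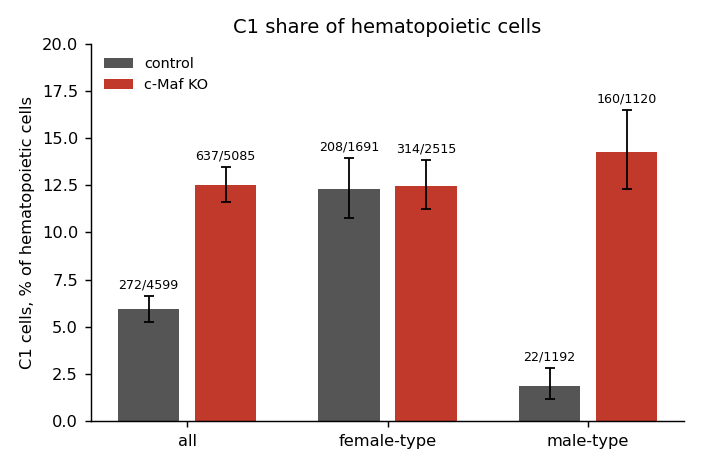
C1 cells as percent of hematopoietic cells (y axis) in the control and c-Maf KO libraries, over all cells and over female-type and male-type cells, with counts above the bars and exact binomial 95% intervals as error bars. The female-type bars stand at 12.3% and 12.5%, and the male-type bars at 1.85% and 14.3%. Cells without a sex call enter only the bars over all cells.

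B-type C1 cells held transcripts of B precursor genes together with those of division. Vpreb3 and Cd79a helped to define the type, so their levels are a description. Vpreb3, a partner of the pre-B cell receptor (chr10:75943057-75949657, plus), was at 2089.8 CPM (2036 to 2144) in the control library and 2107 CPM (2069 to 2145) in the c-Maf KO library. Cd79a, its signalling chain (chr7:24897381-24902197, plus), was at 1613 CPM (1566 to 1661) in the control library and 1596 CPM (1563 to 1628) in the c-Maf KO library. Ebf1 and Pax5, factors that set B cell identity, were at 1792 and 1843 CPM and 217 and 206 CPM. Il7r, the receptor for the growth factor interleukin 7, was at 263 and 284 CPM, and the G1 cyclin gene Ccnd3 was at 736 and 799.9 CPM. These levels lay within 1.5-fold of each other in the libraries.

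Division genes of B-type cells were at like levels in both libraries. Top2a was at 1301 CPM (1259 to 1344) in the control library and 1217 CPM (1188 to 1246) in the c-Maf KO library. Mki67 was at 791 and 820.2 CPM, the histone gene Hist1h2ap at 3812 and 3367 CPM and Ube2c at 905 and 716 CPM. Pcna, the replication clamp, was at 544 and 496 CPM, and Rrm2, a subunit of the reductase that makes DNA precursors, at 541 and 483 CPM. By the authors' phase calls, S phase held 27.2% (21.6 to 33.4) of B-type cells in the control library and 27.4% (23.8 to 31.2) in the c-Maf KO library, and the G2M call held 72.8% and 72.4%. The phase of a cell can also be read as the part of its S phase and G2M phase list UMIs that belong to the S phase list. Its level changed when the most abundant listed genes were left out, as given at the end for all C1 cells. The median of this part was 23.8% in control (quartiles 10.1 and 42.03) and 24.6% in c-Maf KO B-type cells (9.60 and 41.8). The cells spread over the whole range within each library.

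Granulocyte-type cells had a higher S phase part than B-type cells. Their median S phase part was 51.3% in the control library (quartiles 26.3 and 56.2, 9 cells) and 39.9% in the c-Maf KO library (31.4 and 47.4, 19 cells). S phase was called in 6 of 9 and 14 of 19 of them. The part is a ratio and does not show more S phase transcripts. The median granulocyte-type cell held 100 and 44 S phase list UMIs and 133 and 69 G2M phase list UMIs, at median depths of 28343 and 19707. The median B-type cell held 68 and 55.5 S phase list UMIs and 219 and 173 G2M phase list UMIs, at 9837 and 7717.5. Male-type B-type cells of the control library had a median of 12.6% over 22 cells, against 26.9% over 152 in the c-Maf KO library, and female-type cells had 24.9% and 23.9%.

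**Figure D3:**
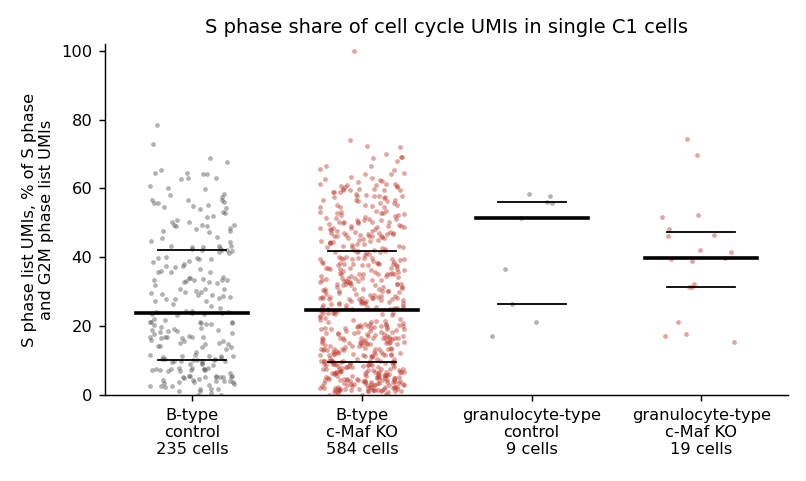
S phase list UMIs as percent of S phase and G2M phase list UMIs (y axis) in single C1 cells of each type and library, where each point is a cell, thick lines are medians and thin lines quartiles. B-type medians lie at 23.8% and 24.6%, and granulocyte-type medians at 51.3% and 39.9%.

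Set beside the resting precursors of cluster B1, B-type C1 cells had every listed S phase and G2M phase gene higher. Calls of higher or lower asked for a 1.5-fold difference in CPM, a counting interval of the ratio without equality and at least 50 UMIs over the sums. In both libraries 1211 of 6696 genes were called higher (18.1%) and 1121 lower (16.7%). C1 was clustered on such genes, so these counts describe the cluster. All 42 S phase genes, all 52 G2M phase genes, 39 of 41 tested replication histone genes and all 20 nucleotide synthesis genes were higher. Rrm2 stood at 0.999 and 1.85 CPM in B1, and Top2a at 2.998 and 5.86 CPM, from 3 and 19 UMIs.

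Genes of pre-B cell maturation went the other way. Of 17 tested genes of the pre-B receptor and recombination, 4 were higher in B-type C1 cells (Vpreb1, Vpreb2, Igll1 and Dntt, the last an enzyme that adds bases at recombined joints) and 10 lower. Rag1 was at 43.3 and 50.7 CPM in B-type C1 and 274 and 295 CPM in B1. Igkc, the kappa light chain gene, was at 2679 and 1846 CPM in B-type C1 and 7557 and 7935 CPM in B1. Of 21 B lineage factors, Lef1 was higher and 10 were lower, among them Ebf1 at 4571 and 4294 CPM in B1. Of the CDK inhibitor and Rb family list, Cdkn1b, Btg1 and Btg2, which brake division, were lower, and Cdkn1a, Cdkn2c, Cdkn2d and Rbl1 were higher, of 8 tested. Scaling by the trimmed mean of ratios moved all genes by -0.14 and -0.15 on the log2 scale in the 2 libraries and changed the counts to 1481 higher and 812 lower.

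Within the B-type cells the authors' G2M and S calls differed in more than division genes. In both libraries 499 of 5750 genes were called higher in G2M cells (8.68%) and 250 lower (4.35%). The calls were made from genes of this kind, so 49 of 52 G2M phase genes higher and 28 of 42 S phase genes lower are no finding. Replication histone genes were higher in G2M cells for 33 of 41. Rag1, Rag2, Igkc and Il7r were also higher in G2M cells, and Igll1 and Dntt lower. Of 19 ribosome synthesis and Myc target genes 9 were lower in G2M cells, and of 20 DNA repair genes 11.

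The surrogate light chain divided B-type C1 cells into 2 kinds. The summed UMIs of Vpreb1 (chr16:16868403-16870843, minus), Vpreb2 (chr16:17980428-17981273, plus) and Igll1 (chr16:16860671-16863985, minus) were 0 in 150 of the 235 B-type cells of the control library and in 344 of the 584 of the c-Maf KO library. The UMIs reached 15 or more in 37 and 122 cells, while 7 and 23 cells held 5 to 9 and 5 and 12 cells held 10 to 14. Cells with at least 10 UMIs were taken as surrogate-high and those with at most 2 as surrogate-low, limits chosen after the counts were seen. Surrogate-high cells were 42 of 235 (17.9%, 13.2 to 23.4) in the control library and 134 of 584 (22.9%, 19.6 to 26.6) in the c-Maf KO library. The interval of one share overlapped that of the other.

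Igkc UMIs were fewer in surrogate-high than in surrogate-low cells, and some cells held both. The median surrogate-high cell held 1.5 Igkc UMIs in the control and 0 in the c-Maf KO library, and the median surrogate-low cell 22 and 15. At least 10 Igkc UMIs were found in 13 of 42 and 17 of 134 surrogate-high cells, against 158 of 181 and 300 of 411 surrogate-low cells. A Dntt UMI was found in 57.1% and 64.9% of surrogate-high cells, and in 0.552% and 2.68% of surrogate-low cells. Surrogate-high cells were deeper, with a median of 17829 and 14524 UMIs against 8787 and 6832, and they were called S phase more often, in 45.2% and 47.0% against 22.1% and 20.7%.

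**Figure D4:**
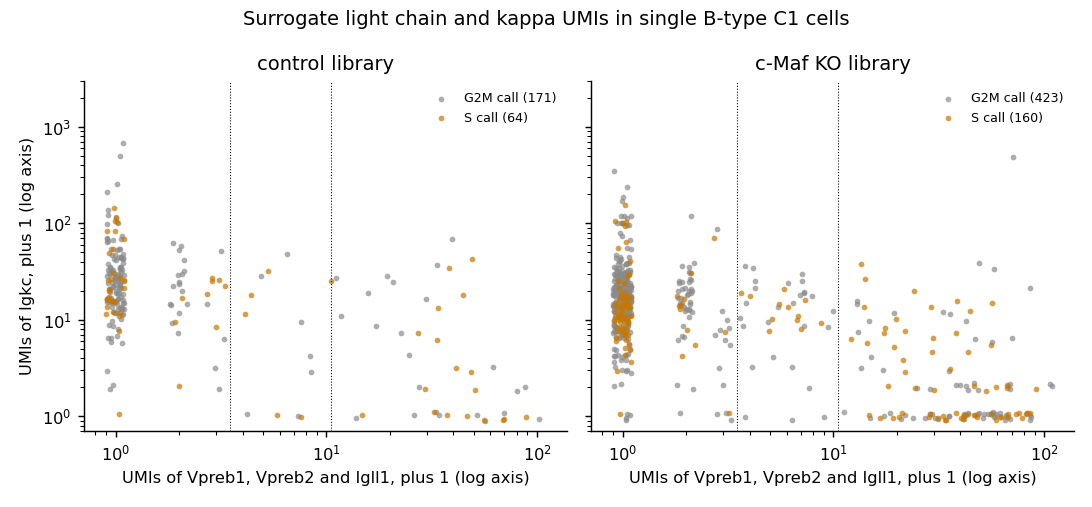
Summed UMIs of Vpreb1, Vpreb2 and Igll1 (x axis) against Igkc UMIs (y axis), each plus 1 on log axes with a small jitter, in single B-type C1 cells called S or G2M by the authors; 1 c-Maf KO cell called G1 is left out. Dotted lines mark the limits of 2 and 10 surrogate light chain UMIs, with 181 and 411 cells to the left of the first and 42 and 134 to the right of the second.

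Surrogate-high cells differed from surrogate-low cells in growth genes. In both libraries 356 of 5629 genes were higher in surrogate-high cells (6.32%) and 512 lower (9.1%), and part of this rests on the genes that made the split and on the depth and phase that move with it. Dntt was at 0.530 CPM in surrogate-low and 473 CPM in surrogate-high control cells, and at 33.9 and 486 CPM in c-Maf KO cells. The factor genes Lef1 and Erg were at 41.8 and 5.30 CPM in surrogate-low and 199 and 71.2 CPM in surrogate-high control cells. In the c-Maf KO library the same genes were at 47.4 and 3.76 CPM and 234 and 77.0 CPM. Both genes were thus high in the surrogate-high cells of each library. The G1 kinase gene Cdk6 was at 30.7 against 135 CPM in the control and 25.7 against 163 CPM in the c-Maf KO library. Of 19 tested genes of ribosome synthesis and Myc targets 15 were higher in surrogate-high cells, of 19 nucleotide synthesis genes 10 and of 12 glycolysis genes 6.

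Surrogate-low cells held the genes of the later precursor. Of 14 tested light chain and mature B cell genes, 12 were lower in surrogate-high cells. Igkc was at 3647 CPM in surrogate-low and 514 CPM in surrogate-high control cells, and at 2885 and 452 CPM in c-Maf KO cells. Ms4a1, the CD20 antigen, was at 204 against 15.5 CPM and 166 against 10.1 CPM. Replication histone genes were lower in surrogate-high cells for 27 of 41, with Hist1h2ap at 4355 against 2276 CPM in the control library. The brakes Cdkn2c, Cdkn2d, Rb1, Btg1 and Btg2 were lower too, 5 of 8 tested. Of 42 S phase genes 3 were higher and 2 lower, and of 52 G2M phase genes 7 were lower.

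Between the genotypes, few genes of B-type C1 cells differed by the call. Of 8508 genes with enough UMIs, 345 were called (4.06%), and 136 were higher (1.6%) and 209 lower (2.46%) in the c-Maf KO library. Female-type cells were 82.6% of B-type C1 cells in the control and 50.3% in the c-Maf KO library, and male-type cells 9.36% and 26.0%. The ratios here and in the next paragraphs therefore also compare different mixes of mice. None of 42 S phase genes, 52 G2M phase genes, 23 replication licensing genes, 21 B lineage factors, 20 nucleotide synthesis genes and 26 respiratory chain genes was called in either direction. Their members lay within the call limits or had intervals that included equality.

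The pre-B receptor list had more members higher in the c-Maf KO library than any other list. Of 18 genes of the pre-B receptor and recombination list, 4 were higher, Vpreb1, Vpreb2, Igll1 and the repair kinase gene Prkdc, and none was lower. Vpreb1 was at 349 CPM (328 to 372) in the control library and 559.6 CPM (540.4 to 579) in the c-Maf KO library, a log2 ratio of 0.68 (0.58 to 0.78). Igll1 was at 257 CPM (239 to 277) in the control library and 395 CPM (379 to 412) in the c-Maf KO library, a log2 ratio of 0.62 (0.50 to 0.74). Vpreb2 was at 45.4 CPM (37.8 to 54.1) in the control library and 92.5 CPM (84.8 to 101) in the c-Maf KO library. In the surrogate-high cells alone, where 292 of 5672 genes were called (5.15%), Vpreb1 had a log2 ratio of 0.31 and Igll1 of 0.28, neither called, while Vpreb2 with 0.66 was called higher.

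The light chain and mature B cell list had 5 of 14 tested members lower and none higher. Iglc2 and Iglc3, lambda light chain genes, were at 919 and 180.3 CPM and 208 and 52.9 CPM. A single control cell of 29149 UMIs held 2112 UMIs of Iglc2, and without the top cell of each library the log2 ratio of Iglc2 went from -2.35 to -0.17 and that of Iglc3 from -1.98 to -1.39. Ighd, the heavy chain of immunoglobulin D, was at 54.4 and 36.3 CPM, Cd55 at 38.9 and 24.1 CPM and Ltb, a lymphotoxin chain, at 68.5 and 39.6 CPM. Igkc was at 2679 and 1846 CPM and Ighm at 3644 and 2703 CPM, neither past the call.

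Of 20 immediate-early and heat shock genes, which answer to stimulation and to handling of cells, 6 were lower with c-Maf KO and none was higher. Fos was at 233 CPM (216 to 252) in the control library and 121 CPM (113 to 131) in the c-Maf KO library, and Egr1 at 80.0 CPM (69.8 to 91.3) in the control library and 28.1 CPM (23.9 to 32.8) in the c-Maf KO library. Fosb was at 254 and 150.3 CPM, Junb at 239 and 153 CPM, Ier2 at 196 and 112 CPM and Hspa1b at 24.2 and 16.0 CPM. In male-type cells alone 2 of 15 tested members, Fos (a log2 ratio of 0.83) and Fosb (0.89), were called higher and none lower, and Junb was at 0.094. In female-type cells 8 of 18 were lower, with Fos at -1.30 and Fosb at -0.91.

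Several of the widest ratios rested on 1 cell. The lowest 3 log2 ratios were those of Ly6c2 (-3.42), Jchain (-3.23) and the scavenger receptor gene Marco (-3.15). Without the top cell of each library they were 0.62, -0.22 and -0.41. The control cell with 338 of 340 Jchain UMIs also held 168 of 172 Ly6c2 UMIs, 1321 Ighm UMIs and 0 Vpreb3 UMIs. A c-Maf KO cell of 23074 UMIs held all 197 Igha UMIs and 71 Jchain UMIs. Jchain and Igha are genes of antibody-secreting cells. Depdc1b, Mid1 and Mrc1 closed the lowest 10, with -1.96, -1.75 and -1.56, and Dnase1l3 and C1qb were also among them, with -2.42 and -2.10. At the upper end after Igha stood Mest (1.88), Ctla2a (1.51), Arpp21 (1.32), Hist1h2ab (1.14), Bok (1.13), Vpreb2 (1.02), Myl10 (1.02), Rmdn3 (1.01) and Tmem176b (0.99). In male-type cells alone the direction turned for Mid1 (2.32), Ctla2a (-1.43), Arpp21 (-0.22) and Tmem176b (-0.025), each with too few UMIs there to be called.

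Transcripts of other liver cells differed between the libraries in B-type C1 cells, and 1 cell held most of the Kupffer cell sum of the control library. All 6 tested of 8 Kupffer cell markers were lower with c-Maf KO. The summed list was at 138 CPM (125 to 153) in the control library and 31.4 CPM in the other, at a median of 0 UMIs per cell in both. In the control sum, 1 cell held 268 of 383 UMIs. Without the top cell of each library for the gene, the log2 ratio was -0.41 (-1.61 to 0.92) for Marco and -1.34 (-2.80 to 0.058) for C1qc. It was -2.04 (-2.94 to -1.23) for C1qb, -1.25 (-2.40 to -0.12) for Clec4f and -1.50 (-3.04 to -0.071) for Cd5l. For C1qa it was -0.99 (-1.97 to -0.00083). Of 12 endothelial markers 10 were tested and 4 were lower, Stab2, Stab1, Clec4g and Ptprb, with a sum over the list of 280 and 223 CPM, a median of 2 and 1 UMIs per cell and no marker at 0. Clec4g was at 34.2 and 12.3 CPM. Maf itself was at 27.0 and 10.9 CPM in B-type C1 cells, from 75 and 63 UMIs, against 1382 and 39.9 CPM in the cycling endothelial cells. Without the top cell of each library, its log2 ratio in B-type C1 cells was -1.11 (-1.68 to -0.55). Maf was at 32.0 and 26.5 CPM in B1 and 55.5 and 10.95 CPM in the Neutrophils cluster. The part of free RNA or of joined droplets in these values was not tested.

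Few genes met the call in the same direction in both sexes of cells. The call was met in 358 of 7521 genes in female-type B-type cells (4.76%) and 395 of 4611 in male-type cells (8.57%), where the control sum came from 22 cells. In the male-type cells 157 genes were higher (3.4%) and 238 lower (5.16%). Of 4605 genes tested in both, 17 were called in the same direction (0.369%), and 23 in opposite directions. Of the genes called over all B-type cells, 103 of 136 higher and 175 of 209 lower genes had the same sign in both sexes, whose cells are part of the sums that made the calls. The 6 higher genes (0.13%) were Vpreb1, Vpreb2, Igll1, Dntt, Thyn1 and Myl10. The 11 lower genes (0.239%) were Iglc2, Iglc3, Cd55, Xbp1, Ctss, Cd36, Igfbp7, Selenow, Ifi30, Selenop and Ncf4. Both sets were taken from their calls and named after these were seen.

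Vpreb1 was at 353 and 625 CPM in female-type control and c-Maf KO cells, and at 293 and 591 CPM in male-type cells. Igll1 was at 277 and 442 CPM, and at 143 and 420 CPM. Both genes were thus higher in the c-Maf KO library in each sex. In male-type control cells these levels rested mainly on 3 surrogate-high cells of 1 mouse, with a median of 19 surrogate light chain UMIs. The other 19 cells held at most 2. Surrogate-high cells were 19.1% (13.8 to 25.3) and 27.2% (22.2 to 32.7) of female-type B-type cells in the control and c-Maf KO libraries. Of male-type B-type cells they were 13.6% (2.91 to 34.9, 3 of 22) and 24.3% (17.8 to 32.0). The intervals overlapped in both sexes. Among male-type cells the c-Maf KO library had 13 of 41 S phase genes higher, and 9 of 52 G2M phase genes lower and 1 higher, while in female-type cells none of either list was called. Scaling by the trimmed mean moved all genes of the male-type comparison by -0.13 on the log2 scale.

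**Figure D5:**
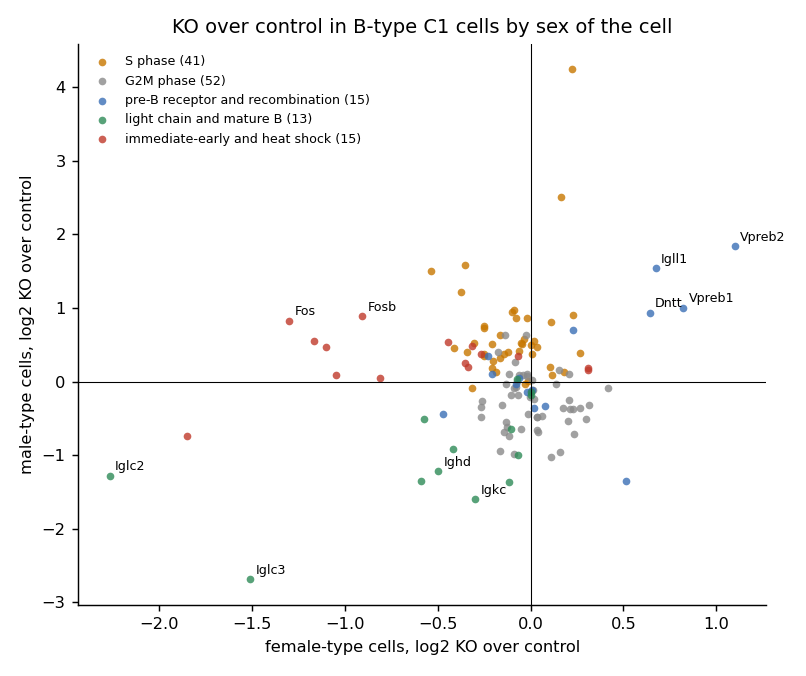
Log2 ratio of the c-Maf KO to the control library in female-type (x axis) against male-type (y axis) B-type C1 cells for members of 5 gene lists tested in both, where each point is a gene and colours are lists. Vpreb1, Vpreb2, Igll1 and Dntt lie in the upper right, Iglc2 and Iglc3 in the lower left, and Fos and Fosb in the upper left.

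Granulocyte-type C1 cells were deep cells filled with transcripts of the first granules. Their median depth was 28343 UMIs in the 9 control and 19707 in the 19 c-Maf KO cells. Elane (chr10:79886247-79888215, plus) ranged from 0 to 682 UMIs per cell with a median of 147 in control cells, and had a median of 45 in c-Maf KO cells. Prtn3 (chr10:79874476-79883174, plus) ranged from 17 to 901 UMIs with a median of 554 in control cells, and from 0 to 581 with a median of 152 in c-Maf KO cells. Mpo (chr11:87793581-87804413, plus) had medians of 131 and 99 UMIs. The cells of each library thus ran from few to many granule UMIs.

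The cells were not all at the same stage or of the same branch. In the control library 6 of 9 cells had 10 or more Elane UMIs, and in the c-Maf KO library 14 of 19. The same level was reached by Ms4a3, a gene of early granulocyte and monocyte precursors, in 6 and 11. Cebpe, a factor of the granulocyte branch, had 3 or more UMIs in 5 and 10 cells. Irf8, a factor of the monocyte and dendritic branch, had 3 or more UMIs in 4 and 8 cells, and 3 and 4 of these held no Cebpe UMI. Prg2, a granule protein of eosinophils, reached 180 and 90 UMIs in 2 c-Maf KO cells and was absent from the control cells. Among the c-Maf KO cells, 3 held under 10 UMIs of Elane, Prtn3 and Mpo together.

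Later granule genes were unevenly held. S100a8 reached 10 or more UMIs in 4 of 9 cells in the control library and 8 of 19 in the c-Maf KO library, with medians of 4 and 3 UMIs and a highest cell of 974 and 1870. Ltf was at 0 UMIs in the control cells, which allows up to 15.1 CPM, and at 5.65 CPM in the c-Maf KO cells, against 6819 and 6911 CPM in the Neutrophils cluster. Camp reached 10 or more UMIs in no control cell and in 1 c-Maf KO cell. That cell, of 37091 UMIs, held 219 of 223 Camp UMIs, 125 of 134 Ngp UMIs and 1870 of 2980 S100a8 UMIs of the c-Maf KO granulocyte-type cells, together with 36 UMIs of the B markers and UMIs of both Xist and Y-linked genes. Scrublet did not mark it.

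Set beside the Neutrophils cluster, the granulocyte-type cells had early granule, replication and ribosome genes higher. In both libraries 1245 of 4175 genes were called higher (29.8%) and 996 lower (23.9%). Of 16 primary granule genes 11 were higher and 2, Hp and Lyz2, lower, and all 21 secondary and tertiary granule genes were lower. Prtn3 was at 15690.1 and 10742 CPM in granulocyte-type C1 and 801 and 176 CPM in Neutrophils, and Ngp at 106 and 379 against 26252 and 24676 CPM. All 17 tested S phase genes and 15 of 16 ribosome synthesis and Myc target genes were higher, with Pcna at 167 and 153 against 55.0 and 45.9 CPM. Of 37 G2M phase genes 7 were higher and 2 lower, and Top2a stood at 188 and 138 against 192 and 119 CPM.

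The scale mattered here, because a few later granule genes fill the Neutrophils libraries. The trimmed mean moved all genes by 0.74 and 0.76 on the log2 scale and changed the counts to 769 higher and 1733 lower. On that scale 13 of 17 S phase genes and 15 of 16 ribosome and Myc genes were higher, all 21 later granule genes lower, and 2 G2M phase genes higher with 9 lower. All 26 respiratory chain genes were higher by CPM and 17 by the trimmed mean. The brakes Cdkn1b, Cdkn2d, Btg1 and Btg2 were lower by both, 4 of 4 tested, with Btg1 at 49.0 and 65.0 CPM against 703 and 799 CPM.

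Granulocyte-type cells had lower mitotic and higher glycolytic transcripts than B-type cells. In both libraries 1045 of 5995 genes were higher in B-type cells (17.4%) and 518 in granulocyte-type cells (8.64%). Higher in B-type cells were 48 of 52 G2M phase genes, 19 of 42 S phase genes, 25 of 41 histone genes, all 23 condensin and kinesin genes and all 8 tested CDK inhibitor and Rb family genes. Top2a was at 1301 and 1217 CPM in B-type and 188 and 138 CPM in granulocyte-type cells, and Mki67 at 791 and 820.2 against 123 and 113 CPM. After thinning to 3275 UMIs, Mki67 or Top2a had a UMI in 93.9% and 91.6% of B-type cells and in 5 of 9 and 7 of 19 granulocyte-type cells. The G2M list was thus lower in granulocyte-type cells of both libraries.

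Higher in granulocyte-type cells were 10 of 12 tested glycolysis genes, 9 of 21 ribosome synthesis and Myc target genes and 5 of 26 respiratory chain genes. The lactate dehydrogenase gene Ldha was at 1001 and 856 CPM in granulocyte-type and 345 and 428 CPM in B-type cells, and Gapdh at 3035 and 2834 against 1384 and 1461 CPM. Myc was at 44.9 and 53.7 against 17.3 and 18.9 CPM. Cdk6 was the 1 listed cyclin or kinase gene higher in granulocyte-type cells, at 266 and 294 against 62.4 and 78.1 CPM. Of B lineage factors, Spi1 and Irf8 were higher in granulocyte-type cells and 16 of 21 in B-type cells.

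The genes that most set the types apart were granule and B cell genes outside the markers as well as those used. Toward the granulocyte side, Ms4a3 held 395 UMIs in control and 467 in c-Maf KO granulocyte-type cells and 0 in the B-type cells of either library. Ctsg was at 4032 and 2927 CPM, from 987 and 1036 UMIs, against 1 and 0 UMIs in B-type cells. Nkg7, a granule membrane protein and 1 of the 2 T or NK markers, was at 592 and 483 CPM in granulocyte-type and 2.52 and 1.91 CPM in B-type cells. Toward the B side stood Vpreb1 and Igll1, each with 0 and 1 UMIs in granulocyte-type cells, and Cplx2 with 0 in both libraries against 457 and 956 UMIs in B-type cells.

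Between the genotypes, 125 of 1627 genes were called in granulocyte-type cells (7.68%), 59 of them higher (3.63%) and 66 lower (4.06%) in the c-Maf KO library. No primary granule marker used for the type was called, with Elane at 7014 and 6713 CPM and Mpo at 4375 and 5289 CPM. Prtn3 was at 15690.1 and 10742 CPM, just inside the 1.5-fold limit. Without the top cell of each library the log2 ratio was -0.48 (-0.55 to -0.41) for Prtn3, 0.24 for Elane and 0.39 for Mpo. All 4 tested histone genes were lower, with Hist1h1b at 466 and 130 CPM and Hist1h2ap at 1528 and 729 CPM. Of 18 tested S phase genes none was called and of 17 G2M phase genes 1 was higher. Of 10 tested later granule genes 5 were higher, Camp, Lcn2, Ngp, S100a8 and S100a9. The single deep cell described above held most UMIs of Camp, Ngp and S100a8, and 1 c-Maf KO cell held 56 of 60 Lcn2 and 1 held 1926 of 2859 S100a9 UMIs. In female-type cells alone, the only sex among the control cells that could be assigned, the direction turned for Ngp (-3.13), S100a8 (-0.87) and S100a9 (-1.90) on the log2 scale. By sex, the control sum rested on 7 female-type cells and no male-type cell, and the c-Maf KO sum on 9 and 5, with the other cells holding UMIs of both sexes' genes or of neither.

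The widest ratios of granulocyte-type cells rested on few cells. Prg2 held 0 UMIs in control and 270 in c-Maf KO cells, all in the 2 cells named above. Cstdc5 had 139 UMIs in 1 c-Maf KO cell. Stfa1 had 359 of 363 in the c-Maf KO cell of 37091 UMIs described above, which also held most Camp and Ngp UMIs, B marker UMIs and UMIs of both sexes' genes. Lyz2, the lysozyme gene of mature phagocytes, was at 61.3 and 424 CPM, with 82 of 150 c-Maf KO UMIs in 1 cell. Without the top cell of each library 91 of the 125 called genes were still called, and 292 of 345 in B-type cells.

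Few C1 cells remained outside these types. The 5 cells of the T or NK-type held 2 to 5 UMIs of Cd3e and Nkg7, and Cd3e had a UMI in 1 of them, with 2. That control cell, of 606 UMIs, also held 4 Trbc1 UMIs, 10 UMIs of a T and NK cell list without the 2 markers, and 0 of the B and granulocyte lists. A control and a c-Maf KO cell of the type held 22 and 16 UMIs of Trbc2, a T cell receptor gene, and 1 and 9 of Trbc1. They held 26 and 28 UMIs of the T and NK list, with 17 and 13 of the B list. Both were typed on Nkg7 alone, with 3 and 2 UMIs, and Cd3e, Cd3d, Cd3g and Trac were at 0. The c-Maf KO cell also held 11 UMIs of a stem and progenitor cell list. An unassigned control cell held 11 Trbc2 UMIs and 20 of the T and NK list. It also held 51 Irf8 UMIs, 54 of a monocyte and macrophage list and 34 of the B list. Cd3e, Cd3d, Cd3g and Trac were at 0 UMIs in it. Deep cells without a type included 3 with 36 to 44 UMIs of a dendritic cell list and 16 to 45 of Irf8. Of these, 1 was in the control and 2 in the c-Maf KO library, and they held 25 to 61 UMIs of the monocyte and macrophage list. A mixed control cell, a mixed c-Maf KO cell and an unassigned c-Maf KO cell held 27, 26 and 24 UMIs of the stem and progenitor list. Of an erythroid list they held 25, 17 and 20 UMIs. Other c-Maf KO cells of the T or NK-type held 21 and 16 UMIs of the stem and progenitor list. The unassigned cells had a median of 664 and 708.5 UMIs, and up to 22058 and 19651.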

How the data were processed

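Per the file headers, the authors deposited raw UMI counts of 32285 genes by barcode in each library, and an annotation of 15835 cells with UMI and gene counts, the percent of mitochondrially encoded UMIs, a phase call and a cluster name. The submitters' processing notes name Cell Ranger 4.0.0, Seurat 3.2.3, FastQC 0.11.3 and mm10 without their roles, and the sources used here give no parameters. The deposited percent was used to describe depth only, and no cell was removed here. Summed UMIs of a cell group in a library were scaled to that group's total (CPM), with exact Poisson intervals. Ratios were taken with 0.5 UMI added and exact conditional binomial intervals, shares with Clopper-Pearson intervals. Hematopoietic cells are annotated cells outside the endothelial clusters (S, S2, KOS_1, KOS_2, KOS_3, PV, C-EC) and clusters D and H.

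The named genes are the markers, Maf, the 10 highest and 10 lowest log2 ratios at 100 UMIs or more (12 between types), and up to 4 members per direction of each of 49 lists at 50 UMIs or more. Predicted, mitochondrial, ribosomal protein and hemoglobin genes, Xist, Tsix and Y-linked genes were left out of these ranks. Other X-linked genes were kept. The members and lists were chosen with earlier results of these data known, and the listed values of single cells and the surrogate light chain limits after values were seen. 3 listed symbols were not in the tables. Alternatives were another scaling, other limits, Scrublet-marked cells left out, each cell weighted equally, each sex of cells alone and the top cell of each library left out. The scripts were checked on simulated data and used Python 3.11.15, numpy 2.4.6, scipy 1.17.1, pandas 2.3.3, scanpy 1.11.5 (Scrublet) and matplotlib 3.10.9.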

Additional observations from a re-analysis of the deposited data

Results flagged for a closer look

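In B-type C1 cells 23 genes were called in opposite directions in the cells of the female and the male mice, and 3 of them are on the gene lists used here. For Fos the log2 ratio of the c-Maf KO to the control library was -1.30 among female-type cells and 0.83 among male-type cells. It was -0.91 and 0.89 for Fosb, and -0.93 and 1.77 for Prg3, an eosinophil granule gene. The difference between the sexes was not tested, since each sex of a library is 1 mouse.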

How the results depend on the processing

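Scaling by the trimmed mean and leaving out Scrublet-marked cells each kept all 63 log2 ratios of single named genes between the genotypes within their main intervals. The trimmed mean did change the counts of called genes against B1 and the Neutrophils cluster, as given above. The C1 share was 3.55% in control and 7.80% in c-Maf KO cells over all annotated cells, 7.37% and 18.8% over hematopoietic cells of at least 3275 UMIs, 12.3% in female-type control cells, and 1.85% and 14.3% in male-type cells. The B-type share was 94.6% and 94.4% in thinned cells. The T or NK-type share was 0 in both libraries at 5 UMIs and 90%, and 0 in thinned control cells. The median S phase part of all C1 cells was 46.2% and 49.1% without the listed genes above the 90th percentile of level. With them it was 26.3% (quartiles 10.3 and 43.8) and 25.3% (9.88 and 42.4). The level of this part thus depended on the most abundant listed genes. Mki67 or Top2a had a UMI in 96.3% and 95.7% of C1 cells at 5925 UMIs. Calls between genotypes in B-type cells were 201 at 100 UMIs, 95 at 2-fold and 694 with cells weighted equally. In granulocyte-type cells they were 261 at 20 UMIs, 60 at 100 UMIs, 30 at 2-fold and 232 with equal weights. B-type over granulocyte-type calls were 2593 with equal weights. At 2-fold, calls were 1263 for B-type C1 over B1, 333 for surrogate-high over surrogate-low and 262 for G2M over S. The direction turned for Ly6c2 without the top cells (0.62). It turned in male-type cells for Mid1 (2.32), Ctla2a (-1.43), Arpp21 (-0.22), Tmem176b (-0.025), Fos (0.83), Fosb (0.89) and Junb (0.094). In female-type granulocyte-type cells it turned for Ngp (-3.13), Wfdc21 (-0.30), S100a8 (-0.87) and S100a9 (-1.90). Fewer cells enter these alternatives, and beyond that the cause was not tested. Granulocyte-type male-type cells were not run, since the control library held 0. No paired analysis was possible because each group has 1 library. Genes under 50 UMIs could not be called, which leaves most genes of granulocyte-type cells outside the comparison.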
